A study of Mus musculus with 6 samples.

Results

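The transcripts examined here encode 9 enzymes that make, recycle, use or degrade glutathione: Cth, Cbs, Gclc, Gclm, Gss, Gsr, Gpx1, Gpx4 and Chac2. They were chosen by name for their place in the pathway, with earlier results of these data known. Each was present once among the 25124 gene symbols of the deposited TPM table. RNA-seq had been carried out on untreated RAW264.7 cells, a macrophage-like mouse line from a tumour induced by Abelson leukaemia virus. The groups were 3 libraries labelled E4BP4 knockout and 3 labelled control, both of the same line and grown in the same medium. E4BP4 is the bZIP transcription factor encoded by Nfil3. The sources used here do not state the knockout method, whether 1 clone was used, or whether the replicates came from separate cultures. The p-values therefore weigh differences against a spread between libraries that could be technical in part.

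Glutathione is a tripeptide of glutamate, cysteine and glycine, and it is the main small thiol of the cell. Transsulfuration supplies cysteine from methionine: cystathionine beta-synthase (Cbs) joins homocysteine to serine, and cystathionine gamma-lyase (Cth) releases cysteine. Glutamate-cysteine ligase, made of a catalytic subunit (Gclc) and a modifier subunit (Gclm), performs the limiting step of synthesis, and glutathione synthetase (Gss) adds glycine. Glutathione peroxidases oxidize glutathione while reducing peroxides, glutathione reductase (Gsr) returns the oxidized form with NADPH, and the gamma-glutamylcyclotransferases Chac1 and Chac2 break glutathione down inside the cell. In macrophages this system is known for handling the oxidants that the cells themselves produce.

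Headers gave 18.4 to 21.7 M tags (M, mega) for the controls and 21.7 to 23.3 M for the libraries labelled knockout. The targeted gene, Nfil3, ran against the label: it measured 29.5, 29.9 and 31.0 TPM in the controls and 105, 104 and 99.8 TPM under the knockout label. RNA levels cannot tell if the protein is missing, and the directions below follow the labels as given. All 11 macrophage markers listed were above the level needed for testing, with summed levels of 4560 to 5061 TPM in the controls and 5517 to 5720 TPM under the knockout label. The sum followed Lyz2, which rose from 1069 ± 78.3 to 2218 ± 49.2 TPM. Of the 11 markers, 3 rose and 6 fell, with a median log2 fold change of −0.17, and Fcgr1, a receptor for antibodies, fell from 40.2 ± 2.15 to 11.8 ± 0.646 TPM (SD, n = 3 each, same fit as below). The part of these differences in the results below was not tested. Of 26 markers of other cell types, 25 stayed under 1 TPM in every library and 8 were at 0 throughout, among them Cd3g, Krt8, Hba-a1, Hbb-bs, Mcpt4 and S100a9; their summed level was 6.62 to 7.55 TPM in the controls and 6.98 to 7.29 TPM under the knockout label. The 1 marker above that level, S100a8, measured 5.29 ± 0.753 TPM against 5.48 ± 0.621 TPM (SD, n = 3 each).

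The 9 enzymes split. Cth rose, whereas Gclc, Gclm, Gss, Gsr and Gpx1 fell under the knockout label. Cbs, at a very low level, was higher under that label. Gpx4 and Chac2 did not pass the test. The test was limma on log2(TPM + 1), run over all 11257 genes with at least 1 TPM in at least 3 libraries and called at a Benjamini-Hochberg adjusted p under 0.05. All 9 enzymes met that filter, but Cbs met it through the knockout label alone, so its difference was partly set by the filter and is given as a description. Of the other 8, 1 was higher and 5 were lower. In the same fit 50.1% of all tested genes were called, 26.7% higher and 23.4% lower, so a count of called enzymes stands against a high background. The groups did not overlap, in either direction, for 58.5% of all tested genes. A lack of overlap in the paragraphs below is therefore common in these data. Differences given on the log2 scale are libraries labelled knockout minus controls. In bulk RNA a lower level per cell and fewer cells carrying the transcript cannot be told apart.

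**Figure D1:**
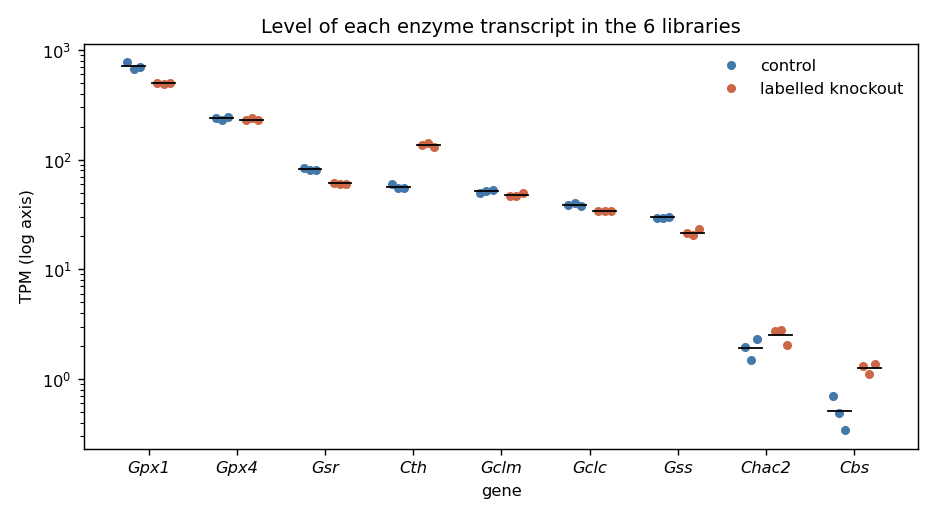
TPM (log axis) of each of the 9 transcripts in the 3 control libraries and the 3 libraries labelled knockout. Points are libraries and black lines are group means. Cth moves from 56.9 to 136 TPM while Gsr moves from 81.4 to 60.7 TPM, so their order turns.

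Gpx1 was the most abundant of the 9 in both groups. In the controls the order of mean levels was Gpx1, Gpx4, Gsr, Cth, Gclm, Gclc, Gss, Chac2 and Cbs, and no neighbours in that order had overlapping values among the 3 libraries. Under the knockout label the order was the same apart from Cth, which stood above Gsr, again with no overlap between neighbours. The 9 levels summed to 1166 to 1274 TPM in the controls and to 1031 TPM in each library labelled knockout. Gpx1 alone made up 58.9% ± 1.46 of that sum in the controls and 48.1% ± 0.851 under the knockout label (SD, n = 3 each). With Gpx1 left out, the sum of the other 8 was 498.9 ± 6.41 TPM in the controls and 535.5 ± 8.94 TPM under the knockout label. These sums weight each transcript by its length-scaled level, so they follow the abundant members.

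Cth, the enzyme that releases cysteine, is a minus-strand gene of chromosome 3 (157894248 to 157925063 in mm10), and its transcript has 12 exons in GENCODE M21. It measured 59.7, 55.7 and 55.4 TPM in the controls and 136, 142 and 130 TPM under the knockout label, from 1312 to 1679 and from 3735 to 4270 recovered reads. As for 58.5% of all tested genes, the groups did not overlap: every library labelled knockout lay above every control. The mean rose 2.38-fold, from 56.9 ± 2.38 to 136 ± 6.17 TPM (SD, n = 3 each), with a log2 fold change of 1.24 (SE 0.0462, limma adjusted p = 6.86e-08). On log2(TPM + 1) that was the largest difference among the 9, although the ratio of mean TPM was larger for Cbs. Relative to the other tested genes, Cth moved from percentile 82.9 of mean level in the controls to percentile 93.4.

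The tested genes whose pattern across the 6 libraries lay nearest to that of Cth were Neat1, Cebpd and Eif4ebp1. Their Euclidean distances from Cth, in log2(TPM + 1) after subtraction of each gene's control mean, were 0.09996, 0.149 and 0.155. Neat1, a long noncoding RNA of nuclear paraspeckles, measured 49.8 ± 2.18 TPM in the controls and 118 ± 5.12 TPM under the knockout label. Cebpd, a C/EBP transcription factor gene, measured 13.2 ± 0.536 and 32.0 ± 2.35 TPM, and Eif4ebp1, an inhibitor of translation initiation, measured 99.5 ± 4.37 and 225.9 ± 10.2 TPM (SD, n = 3 each). With 2 groups of 3, such a likeness is mostly that of the group difference, and it is given as a description.

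Cbs, the enzyme of the preceding step, was close to the floor of detection. Its minus-strand gene spans 31612623 to 31637205 on chromosome 17. It measured 0.703, 0.487 and 0.340 TPM in the controls and 1.30, 1.12 and 1.38 TPM under the knockout label, from 27, 18 and 11 against 49, 46 and 55 recovered reads. The groups did not overlap, and the ratio of mean TPM was 2.49. On log2(TPM + 1), which compresses low levels, the difference was 0.59 (SE 0.125). It was 1.20 with a pseudocount of 0.1, 1.30 in limma-voom on whole reads, and 0.20 in limma on the authors' stabilized values. Per transcript length, Cth exceeded Cbs 121-fold ± 39.4 in the controls and 108-fold ± 16.9 under the knockout label. The ratio ran from 84.9 to 163 in the controls and from 93.7 to 127 under the knockout label. It overlapped between the groups (exact permutation p = 0.8, two-sided). With so few Cbs reads, that overlap cannot show whether the 2 transcripts moved together, and the ratio is a description.

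The ligase subunits differed little. Gclc, on the plus strand of chromosome 9 from 77754535 to 77794489, measured 38.5, 40.2 and 38.1 TPM in the controls and 34.3, 34.1 and 34.3 TPM under the knockout label. The groups did not overlap, and the log2 fold change was −0.18 (SE 0.0393, limma adjusted p = 0.00402). Gclm, on the plus strand of chromosome 3 from 122245557 to 122267215, measured 49.9, 51.9 and 53.1 TPM in the controls and 46.6, 46.6 and 49.5 TPM under the knockout label. The lowest control exceeded the highest library labelled knockout by less than the spread within either group. Its log2 fold change was −0.12 (SE 0.0428), and it passed only just (limma adjusted p = 0.0480). Gclm no longer passed when low genes were kept (adjusted p = 0.0663) or with a replicate block (0.0634). Nor did it pass when control replicate 2 (0.0988) or 3 (0.152), or replicate 1 (0.159) or 2 (0.141) under the knockout label, was left out. Within a library, Gclm stood at 1.33 ± 0.0580 times Gclc in the controls and at 1.39 ± 0.0473 times under the knockout label, and these ratios overlapped (exact permutation p = 0.3, two-sided). In GENCODE M21, Gclm shares 296 exon bases with Gm17494, a transcript of the opposite strand. It also shares 244 exon bases with Gm6061, a transcribed pseudogene on the same strand. The part of either in the Gclm value was not tested.

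The Gclm promoter holds a match to the core of the antioxidant response element, the site at which NRF2 with a small MAF partner is known to act. The match was searched as TGACNNNGC on both strands, from 250 bases before to 50 bases after the start, in RefSeq promoter windows of GRCm38.p6. It lies 134 to 126 bases before the start, in the window chr3:122245413-122245441, and is shown in capitals on the gene's own strand, so that the core reads on the opposite strand.
Gclm: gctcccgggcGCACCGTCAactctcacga
Of all 32851 windows, 12.4% held this core. Windows were found for 6 of the 9 genes (Cbs, Chac2, Gclm, Gpx1, Gpx4 and Gss), and Gclm alone among them held it. None of the 6 held TGATGNAAN, the composite of ATF4 with a C/EBP partner, which 3.95% of all windows held, or the D-box letters TTATGTAA and TTACGTAA, which E4BP4 is known to bind and which 0.938% and 0.119% of windows held. A match of letters is a description of the window.

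Gss, which adds glycine in the last step of synthesis, fell more than the ligase subunits. Its minus-strand gene spans 155563181 to 155592810 on chromosome 2, and it measured 29.6, 29.7 and 30.2 TPM in the controls and 21.3, 20.5 and 23.2 TPM under the knockout label. All libraries labelled knockout were below all controls. The group mean was 1.38-fold lower, at 21.7 ± 1.41 TPM against 29.8 ± 0.297 TPM (SD, n = 3 each), with a log2 fold change of −0.45 (SE 0.0514, limma adjusted p = 8.47e-05). The ratio of Gclc to Gss within a library was 1.26 to 1.35 in the controls and 1.48 to 1.66 under the knockout label. These did not overlap, and the exact permutation p was 0.1, the smallest that 3 against 3 allows. Gss overlaps Acss2, an acetyl-CoA synthetase gene on the opposite strand, and the exons of both share 395 bases in GENCODE M21. The kit used for the libraries keeps no strand information. Acss2 measured 23.5 ± 0.249 TPM in the controls and 17.01 ± 0.854 TPM under the knockout label, a log2 fold change of −0.44 close to that of Gss, and its part in the Gss value was not tested. The antisense transcripts Gssos1 and Gssos2 share a further 322 and 385 exon bases with Gss.

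Gsr, which regenerates reduced glutathione, lies on the plus strand of chromosome 8 from 33653238 to 33698162. It measured 84.2, 79.8 and 80.3 TPM in the controls and 61.8, 60.5 and 60.0 TPM under the knockout label. The groups stood well apart, with a mean of 81.4 ± 2.44 TPM falling to 60.7 ± 0.929 TPM (SD, n = 3 each). The log2 fold change was −0.42 (SE 0.0376, limma adjusted p = 1.79e-05). Cth and Gsr changed places: Cth stood at 0.699 ± 0.00916 times Gsr in the controls and at 2.23 ± 0.0990 times Gsr under the knockout label, with no overlap (exact permutation p = 0.1, the smallest possible).

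**Figure D2:**
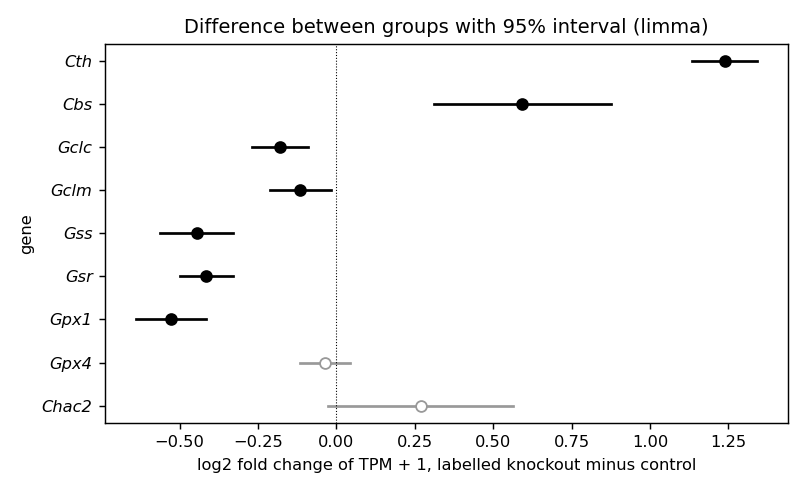
Difference between the groups for each of the 9 transcripts on log2(TPM + 1), labelled knockout minus control, with its 95% interval from limma. Filled black points passed at an adjusted p under 0.05 and open grey points (Gpx4 and Chac2) did not. Cbs is filled, but it met the filter through the knockout label alone and is a description. Cth stands at 1.24 and Gpx1 at −0.53.

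The 2 peroxidases parted. Gpx1, the cytosolic enzyme that reduces hydrogen peroxide, lies on the plus strand of chromosome 9 from 108339080 to 108340342. It measured 772, 675 and 701 TPM in the controls and 499, 486 and 501 TPM under the knockout label. Control replicate 1 was the highest, and every control exceeded every library labelled knockout. The mean fell 1.44-fold, from 716 ± 50.1 to 495 ± 8.61 TPM (SD, n = 3 each), with a log2 fold change of −0.53 (SE 0.0495, limma adjusted p = 2.21e-05). Without control replicate 1 the log2 fold change was −0.47. Gpx1 was among the most abundant transcripts of these cells in both groups, at percentile 99.1 of tested genes in the controls and 98.7 under the knockout label.

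Gpx4, which reduces lipid peroxides in membranes and guards against ferroptosis, did not pass the test. It lies on the plus strand of chromosome 10 from 80053659 to 80056439 and measured 238, 232 and 243 TPM in the controls and 228, 238 and 229 TPM under the knockout label. The groups overlapped. The log2 fold change was −0.037 with a 95% interval of −0.12 to 0.042 (limma adjusted p = 0.408), from 2507 to 3121 recovered reads per library. The ratio of Gpx1 to Gpx4 within a library was 3.24, 2.90 and 2.88 in the controls and 2.19, 2.04 and 2.19 under the knockout label. These ratios did not overlap (exact permutation p = 0.1, the smallest possible). A processed pseudogene of Gpx4, Gpx4-ps2, is annotated on chromosome 10, and the sources used here do not say how reads matching both were assigned.

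Both peroxidases are selenoproteins: selenocysteine, their catalytic residue, is read from a TGA codon that would otherwise end translation. The codons are shown in capitals with their coding context, since this is the feature that sets Gpx1 and Gpx4 apart from the other 7 enzymes. They were taken from the GENCODE M21 transcripts that match the RefSeq transcripts of the authors' comparison table.
Gpx1: gtcgcgtctctcTGAggcaccacgatccgg
Gpx4: gtggcctcgcaaTGAggcaaaactgacgta
In Gpx1 the TGA is codon 47, at 108339451 to 108339453 on chromosome 9, in exon 1 of 2. In Gpx4 it is codon 73, at 80054737 to 80054739 on chromosome 10, in exon 3 of 7. From the codon to the end of its exon there are 105 bases in both transcripts. The other glutathione peroxidase genes were all but silent: of Gpx2, Gpx3, Gpx5, Gpx6, Gpx7 and Gpx8, 3 were at 0 in every library (Gpx2, Gpx6 and Gpx7) and the highest value of any was 0.203 TPM.

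Chac2, which degrades glutathione slowly and constitutively, was scarce. Its minus-strand gene spans 30976707 to 30986365 on chromosome 11, within the span of the opposite-strand gene Asb3, with which it shares 0 exon bases. It measured 1.97, 1.48 and 2.34 TPM in the controls and 2.71, 2.81 and 2.05 TPM under the knockout label, from 29 to 40 and from 43 to 61 recovered reads. The groups overlapped, since the third library labelled knockout lay below the highest control. The log2 fold change was 0.27 with a 95% interval of −0.026 to 0.56 (limma adjusted p = 0.116). Its paralog Chac1, the inducible enzyme, measured 8.52, 9.57 and 9.79 TPM in the controls and 94.9, 91.0 and 91.5 TPM under the knockout label. The ratio of Chac1 to Chac2 within a library thus ran from 4.18 to 6.45 in the controls and from 32.4 to 44.7 under the knockout label (exact permutation p = 0.1, the smallest possible).

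The RefSeq promoter window of Chac1 holds a match to TGATGNAAN. It lies 194 to 186 bases before the start, in chr2:119351038-119351066 of GRCm38.p6, and reads on the strand opposite to the gene. As given above, 3.95% of all windows hold these letters, and the Chac2 window does not. The stretch is printed to show the letters matched, and the part of the match in the level of Chac1 was not tested.
Chac1: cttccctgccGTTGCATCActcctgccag

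**Figure D3:**
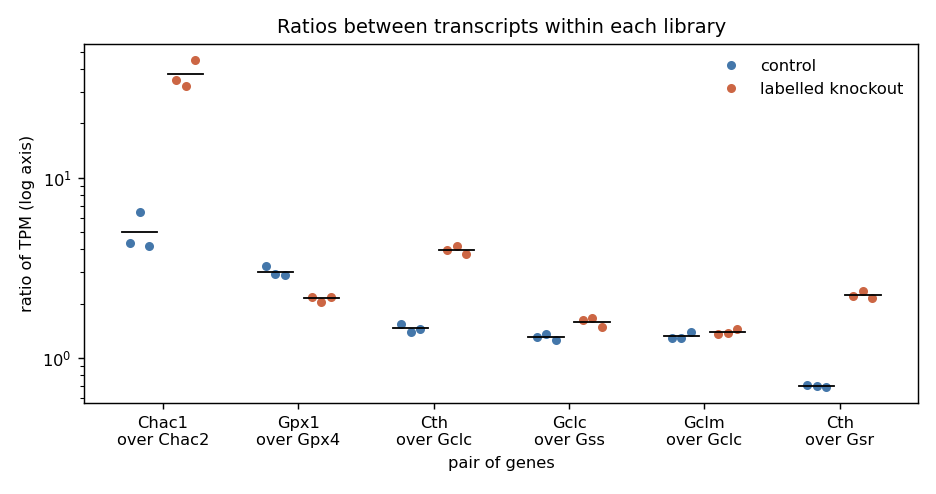
Ratio of TPM between pairs of transcripts within each library (log axis), for the 3 control libraries and the 3 libraries labelled knockout. Points are libraries and black lines are means; Chac1 over Chac2 runs from 4.18 to 6.45 in the controls and from 32.4 to 44.7 under the knockout label, while Gclm over Gclc overlaps.

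In all, 8 such ratios were compared, with pairs chosen after the levels were known. Of these, 6 had the smallest exact permutation p that 3 against 3 allows, 0.1, which adjusted over the 8 gave 0.133. No ratio could have passed at 0.05 with 3 against 3, whatever its values. The ratios are therefore a description. Besides those given, Cth stood at 1.46 ± 0.0822 times Gclc in the controls and at 3.97 ± 0.195 times under the knockout label, and Gpx1 at 8.78 ± 0.355 and 8.16 ± 0.180 times Gsr (SD, n = 3 each). The ratio of Gpx1 to Gsr, both of which fell, moved least of the 6 ratios without overlap.

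The authors' deposited table gave log2 fold changes of the same sign for each of the 9: 1.24 for Cth, 1.27 for Cbs, −0.20 for Gclc, −0.13 for Gclm, −0.48 for Gss, −0.43 for Gsr, −0.53 for Gpx1, −0.053 for Gpx4 and 0.39 for Chac2. Its adjusted p for Gclm was 0.0497, and for Gpx4 and Chac2 it was 0.426 and 0.297. Of the 10740 genes tested here that have a row in the same table, 45.9% had an adjusted p under 0.05 there. For 5 of the 9 (Cbs, Gss, Gpx1, Gpx4 and Chac2) that table used another RefSeq transcript than the TPM table, with a length of 946 against 779 bases for Gpx4.

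Around the 9 enzymes, 12 lists of related genes were described with the same fit. Across them 140 distinct genes were tested, of which 58 were higher and 32 lower under the knockout label, against the 26.7% and 23.4% of all 11257 tested genes given above. The median log2 fold change of all tested genes was 0.017. Lists whose share of called genes lies near the overall 50.1% do not stand apart from the background. Among them are glutaredoxins and thioredoxins (47.8%), glutathione carriers and glyoxalases (54.5%), glutathione breakdown (57.1%) and selenocysteine factors (58.3%). Among 10 tested genes that bring in the amino acids of glutathione, 9 were higher and 0 lower (90% called), with a median log2 fold change of 0.47. Slc7a11 is among the 9, and 8 of the other 9 rose. Slc7a11, the cystine carrier, measured 0.738, 0.766 and 0.778 TPM in the controls and 4.01, 4.30 and 4.03 TPM under the knockout label, a 5.40-fold ratio. Like Cbs, Slc7a11 entered the test through the knockout label alone, so it does not count as support. Of the others, Glud1 kept its call in 4 of 14 alternatives (adjusted p from 0.0362 to 0.152) and Shmt1 in 10 of 14 (0.00479 to 0.0656). Without replicate 1 or 3 under the knockout label, 6 of 9 tested were higher. Slc3a2, its partner chain, rose 1.55-fold from 123 ± 1.62 TPM, and Slc1a4, a carrier of small neutral amino acids, rose 4.63-fold to 19.7 ± 0.653 TPM. Gls2, the member that did not pass, had a log2 fold change of −0.057.

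**Figure D4:**
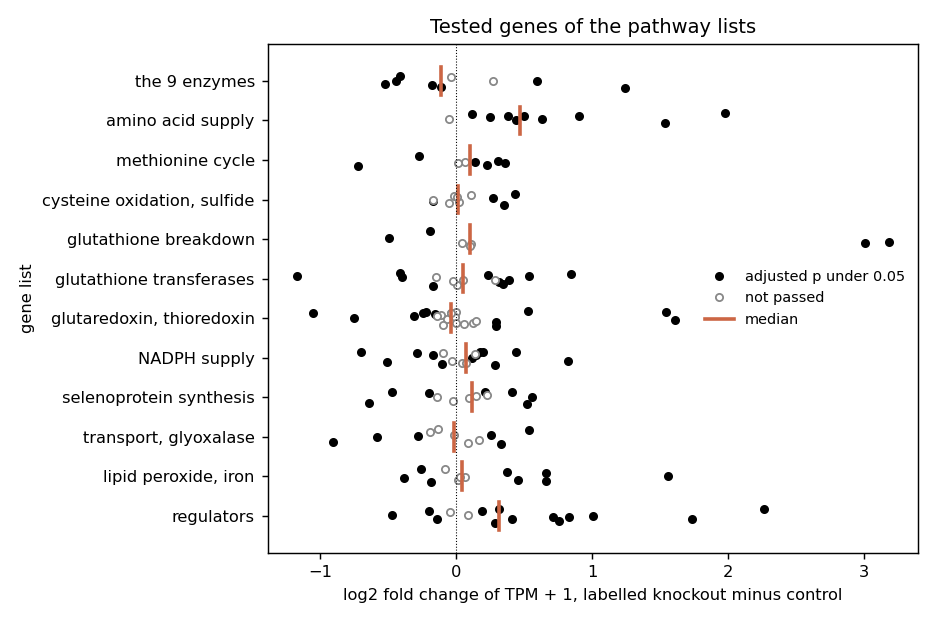
Log2 fold change of TPM + 1, labelled knockout minus control, of each tested gene in the 9-enzyme group and in 11 lists of related genes. Black points passed at an adjusted p under 0.05, open points did not, and the bar is the list's median, which is −0.12 for the 9 enzymes and 0.47 for amino acid supply.

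Genes of the methionine cycle, which feeds homocysteine to Cbs, moved both ways: 4 of 8 tested rose and 2 fell, with a median of 0.10. That is 75% called, against 50.1% of all tested genes. The 2 that fell were Ahcyl2, a relative of the enzyme that frees homocysteine, and Mat2a, which makes S-adenosylmethionine, with log2 fold changes of −0.72 and −0.27. Among those that rose, Ahcy, Mtr and Mat2b did so by 0.31, 0.23 and 0.14 on that scale, and Mtr lost its call without replicate 1 under the knockout label (limma adjusted p = 0.0630). Of 10 tested genes listed around cysteine oxidation and sulfide handling, 3 rose (Txnip, Got1 and Tst) and 1 fell (Sqor), with a median of 0.013. That is 40% called, against 50.1% of all tested genes. Txnip, which encodes a thioredoxin-binding protein, is on the list but is not an enzyme of these steps. Tst, a sulfur transferase, passed only just (limma adjusted p = 0.0468) and kept its call in 2 of the 13 alternatives that tested it (0.0280 to 0.143). The fall of Sqor, sulfide:quinone oxidoreductase, was small (log2 fold change −0.17, limma adjusted p = 0.0297), and the call was lost when low genes were kept (adjusted p = 0.0704) and without each library in turn (0.0556 to 0.120) except replicate 2 under the knockout label.

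In the breakdown list 2 of 7 tested genes rose and 2 fell (57.1% called, near the 50.1% of all tested genes), with a median of 0.10. Beside Chac1, Anpep, an aminopeptidase that can split the cysteinylglycine left by glutathione cleavage, rose from 13.3 ± 0.864 to 114.3 ± 5.61 TPM. Ggact, a gamma-glutamylamine cyclotransferase, and Dpep2, a membrane dipeptidase, fell, with log2 fold changes of −0.50 and −0.19. The other 7 of the list's 14 genes were under 1 TPM in every library, the gamma-glutamyl transferases Ggt1, Ggt5, Ggt6 and Ggt7 among them.

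Glutathione transferases split into 6 higher and 4 lower of 15 tested (66.7% called, against 50.1% of all tested genes), with a median of 0.046. Of the called genes, Gstm5 kept its call in 6 of 14 alternatives, Ltc4s in 10 of 13 and Gstp1 in 12 of 13. Hpgds, the prostaglandin D synthase of macrophages, rose 1.86-fold to 21.1 ± 0.619 TPM. The microsomal enzymes Mgst1 and Mgst3 fell, Mgst1 from 7.63 ± 1.53 to 2.81 ± 0.505 TPM and Mgst3 from 65.1 ± 3.26 to 48.6 ± 1.22 TPM. Among glutaredoxins, thioredoxins and related repair enzymes 5 of 23 rose and 6 fell (47.8% called, near the share of all tested genes), with a median of −0.037. Msrb1, a selenoprotein that repairs oxidized methionine, rose 3.07-fold to 276 ± 15.4 TPM and Sesn2, a stress-induced sestrin, rose 3.06-fold, whereas Sesn1 fell 2.20-fold.

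NADPH is the cofactor of Gsr. Of 17 tested genes listed around its supply, 7 rose and 5 fell (70.6% called, against 50.1% of all tested genes), with a median of 0.068. The list also holds enzymes that do not themselves make NADPH, such as Tkt and the NAD kinases Nadk and Nadk2. Its counts therefore do not measure NADPH production. Mthfd2, a mitochondrial folate enzyme, rose 1.77-fold to 277 ± 9.80 TPM. Pgd of the pentose phosphate pathway and the malic enzyme Me1 fell 1.22-fold and 1.74-fold. Of the called genes, Nadk2 kept its call in 5 of 14 alternatives, Tkt in 8 and Idh2 in 10. With a replicate block, 5 of the 17 were higher and 4 lower. Of 12 factors for selenocysteine use 4 rose and 3 fell (58.3% called, near the share of all tested genes), with a median of 0.12. Sephs2, which makes the selenium donor, rose 1.44-fold. Sars, which loads serine onto the selenocysteine tRNA as well as onto the serine tRNAs, rose 1.47-fold. Selenop, the selenium transport protein gene, fell 1.58-fold from 44.9 ± 0.588 TPM. Scly and Lrp8 also fell (log2 fold changes −0.20 and −0.47), and Pstk and Eefsec rose (0.41 and 0.21).

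Glutathione carriers and glyoxalases divided into 3 higher and 3 lower of 11 tested (54.5% called, near the share of all tested genes), with a median of −0.016. In limma-voom on whole reads and on the authors' stabilized values, 4 were higher and 5 lower. The glyoxalase genes Hagh, Haghl and Glo1 rose (log2 fold changes 0.54, 0.33 and 0.26), and the conjugate exporters Abcc3 and Abcc5 fell (−0.91 and −0.58), as did Esd (−0.28). Around Gpx4, 5 of 12 genes of lipid peroxidation and iron handling rose and 3 fell, with a median of 0.045. That is 66.7% called, against 50.1% of all tested genes. Fth1, the ferritin heavy chain, rose 1.37-fold from 4031 ± 98.1 TPM, Gch1, which makes the antioxidant tetrahydrobiopterin, rose 1.61-fold, and Alox5 rose 3.33-fold. Aifm2, Hmox1 and Lpcat3 fell (log2 fold changes −0.38, −0.26 and −0.18).

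Of 15 tested genes listed as regulators, 10 rose and 3 fell (86.7% called, against 50.1% of all tested genes), with a median of 0.32. The 10 include Nfil3, the targeted gene, so it does not count as support. Ddit3, which encodes CHOP, led with Nfil3 and Atf4, at a log2 fold change of 2.27. Atf4, which encodes a stress-induced factor, measured 371, 349 and 355 TPM in the controls and 731, 731 and 701 TPM under the knockout label. Nfe2l2, which encodes NRF2, measured 106 ± 1.37 TPM in the controls and rose to 121 ± 2.46 TPM under the knockout label (1.14-fold, limma adjusted p = 0.00138). Keap1, which targets NRF2 for degradation, fell from 36.2 ± 1.09 to 25.7 ± 0.437 TPM. Bach1, which encodes a repressor of NRF2 targets, was among those that rose, and its call held in all 14 alternatives. The small MAF genes Mafk and Mafg fell by 0.20 and 0.14 on the log2 scale. Without control replicate 3 neither passed (limma adjusted p = 0.0519 and 0.0581), which left 1 regulator lower, and Mafg also lost its call without replicate 2 under the knockout label (0.0561).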

How the data were processed

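Per the labels' protocols, polyadenylated RNA was prepared with an NEBNext Ultra RNA kit. Per the submitters' processing notes, bcl2fastq, STAR 2.7.5a, HOMER 4.11.1, DESeq2 and mm10 were used, without role or order. The authors deposited TPM values (reads scaled by transcript length and library) for 25124 symbols. These summed to 551257 to 556083 per library, not to 1000000. They also deposited a second table with stabilized log2 values, log2 fold changes and p-values for 24421 symbols. Its header reads WT vs. TG, and TG was read as the group labelled knockout.

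Here log2(TPM + 1) was compared with limma 3.58.1 (trend, no covariates) in R 4.3.3, two-sided, for genes with at least 1 TPM in at least 3 libraries. The script was checked on simulated data. TPM times transcript length fell on whole reads (100% of values checked within 0.1), 15.6 to 19.9 M (mega) per library. Replicates differed by 1.78 to 5.73 chi-square per degree of freedom, and all 6 libraries were counted. Such a spread does not show whether the replicates came from separate cultures. Fold ratios are of mean TPM. Alternatives were a pseudocount of 0.1, no filter or 5 TPM, upper-quartile and median-ratio scaling, limma-voom on the whole reads, limma on the authors' stabilized log2 values, a replicate block, and each library left out.

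The members, lists and tests were chosen with earlier results of these data known. Named genes were the 9 enzymes, Nfil3, Chac1, Slc7a11, Atf4, Nfe2l2 and up to 3 genes per list by adjusted p. Other genes were named after their values were seen. A few listed genes are not reported here. Same-numbered libraries did not deviate together (r = −0.0133, −0.0578 and 0.00302).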

Additional observations from a re-analysis of the deposited data

How the results depend on the processing

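In 14 alternatives, the 5 falls among the enzymes kept their sign, and the calls for Gclc, Gss, Gsr and Gpx1 held in each, as did that for Cth. The call for Gclm held in 8 of 14. With at least 5 TPM required in at least 3 libraries, 1 enzyme was called higher, since Cbs and Chac2 were no longer tested. Without 1 library at a time, 1 to 2 enzymes were called higher and 4 to 5 lower. Where 2 were higher, the second was Cbs, which met the filter through the knockout label alone and does not count as support. Cbs could not be tested without any of the libraries labelled knockout, because fewer than 3 libraries then reached 1 TPM. Gpx4 and Chac2 passed in none (adjusted p from 0.248 to 0.700 and from 0.0511 to 0.341). With a replicate block 4 enzymes were called lower and 2 higher, again with Cbs as the second. The block ended the call for Gclm and no other among the enzymes. Leaving out 1 library turned the sign of S100a8 (log2 fold change −0.056 to 0.11) and Xist (−0.068 to 0.025), neither of which passed. Malat1, a nuclear RNA, fell (log2 fold change −0.34) and lost its call in 7 alternatives; its part in any result was not tested. Cbs and Chac2 rest on 11 to 61 reads per library.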

Other observations

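Since Gpx1 and Gpx4 are selenoproteins, the other genes with an annotated selenocysteine codon in GENCODE M21 were read in the same fit, as a set chosen after the values of Gpx1 and Gpx4 were seen. All 24 annotated genes were in the table and 18 were tested. Of these, 7 were higher under the knockout label, 5 were lower and 6 did not pass, with a median log2 fold change of 0.011. In the same fit 26.7% of all tested genes were higher and 23.4% lower. The 5 lower were Selenop, Gpx1, Selenok, Selenon and Selenof, with log2 fold changes of −0.64, −0.53, −0.32, −0.29 and −0.13. Gpx1 was the most abundant of the 18 in both groups, and Selenof, a folding factor of the endoplasmic reticulum, was next in the controls at 387 ± 10.3 TPM. Msrb1 (1.61), Sephs2 (0.52), Selenos (0.31), Txnrd3 (0.29), Selenow (0.24), Selenoh (0.17) and Selenoo (0.14) rose by the log2 values given. The cytosolic thioredoxin reductase gene Txnrd1 measured 117 ± 2.26 TPM in the controls and 111 ± 2.83 TPM under the knockout label and did not pass (limma adjusted p = 0.142).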
